A study of Arabidopsis thaliana with 8 samples.

Results

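The 5 Arabidopsis genes AT5G40020, AT5G60720, AT1G08340, AT1G63520 and AT2G41610 were followed across 8 Affymetrix arrays of protoplasts, which are plant cells stripped of their walls. They were taken by locus code, because their transcripts are known to accompany those of the secondary wall cellulose synthases, from 13350 genes that the annotation used here names with a probe set of their own. Each has 1 probe set. The cells carried SND1XVE or VND7XVE, estradiol-activated versions of SND1 or VND7, transcription factors of the NAC family. The 4 groups were SND1XVE with cycloheximide alone (SND1XVE control), SND1XVE with cycloheximide and estradiol (SND1XVE estradiol), and the same pair for VND7XVE, with 2 arrays each. All groups received cycloheximide, which stops protein synthesis, so the comparison asks which genes each factor turns on without newly made proteins in between. The labels give no tissue of origin, promoter, dose or time, and estradiol was given only to cells with a factor, so the hormone's own effect and the factor's cannot be told apart.

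Secondary walls are laid down inside the primary wall of fibres and vessels and owe their strength to cellulose, xylan and lignin. Cellulose is made at the plasma membrane by complexes of cellulose synthases, and a separate set of these enzymes serves secondary walls. SND1 and VND7 are master switches of this program, best known for fibres and for vessels respectively. Genes whose transcripts follow those cellulose synthases from tissue to tissue have been used to search for further wall factors. AT5G40020 belongs to the thaumatin family, extracellular proteins best known from defence and stress. AT1G08340 belongs to the Rop GTPase activating family: such proteins switch off ROPs, small GTPases of plants, and in Arabidopsis metaxylem vessels a ROP with its activator and its GTPase activating protein sets where wall pits form. AT5G60720, AT1G63520 and AT2G41610 encode proteins with no settled function, so no role is given for them. The probe sets of the cellulose synthases and of SND1 and VND7 are unnamed in the annotation used and were not analysed here, so co-expression could not be checked on these arrays.

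Signals are the authors' deposited intensities, which had been scaled so that the trimmed mean of every array was about 500. Changes are differences of log2(signal + 16), where 16 is added to damp noise among low signals, which also understates changes that start from them. A probe set was tested if 2 or more arrays gave it a signal higher than their 40th percentile, and a change was called when its limma adjusted p over all 14768 tested probe sets was under 0.05. All 5 genes passed, but AT5G40020, AT1G63520 and AT2G41610 exceeded that level on the 2 VND7XVE estradiol arrays alone, so that these genes entered the test through the group where they were high. AT1G08340 exceeded it on a single control array, SND1XVE control replicate 1, so it too passed only with the estradiol arrays where it was high. Array medians were 98.95 to 102 in controls and 108.3 to 109.9 with estradiol. The ratio of 3' to 5' actin signal, a sign of RNA integrity, ran from 2.80 to 3.30 in SND1XVE and from 3.72 to 4.64 in VND7XVE. Of 15 mesophyll markers, the 2 named here (RCA and LHCB4.1) summed to 4855.2 to 5433.5 on SND1XVE arrays and to 7905.9 to 8362.9 on VND7XVE arrays, and neither had a call for estradiol in either line. LHCB4.1 was higher in VND7XVE controls by 1.04 (adjusted p = 1.04e-06), whereas RCA differed by 0.24 with no call (adjusted p = 0.0952). The difference in the sums thus came mainly from LHCB4.1. Of 4 guard cell markers 2 were named and summed to 54.9 to 154.1, and none of the 3 vessel, 3 phloem and 4 epidermis markers, nor any of 5 genes of the vessel cell death program, carried a name. The part of these differences between the lines in the results below was not tested.

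AT5G40020 responded in VND7XVE and had no call in SND1XVE. Its signals were 7.6 and 3.7 in SND1XVE controls, 7.6 and 5.9 with estradiol, 4.6 and 4.4 in VND7XVE controls, and 2571.8 and 3093.9 in VND7XVE with estradiol. On 6 arrays it lay among the lowest signals, above only 8.66% to 17.7% of the array, and on the remaining pair it stood above 93.7% and 94.8% of it. The change in VND7XVE was 7.11 ± 0.31 (SE, n = 2 arrays per group, adjusted p = 5.21e-11), the largest of all tested probe sets that name 1 gene and the fourth largest of all. In SND1XVE the change was 0.08 with a 95% interval from -0.57 to 0.73 (adjusted p = 0.912). The effects differed by 7.04 ± 0.43 (adjusted p = 5.36e-08), and with estradiol the 2 lines differed by 6.96 ± 0.31 (adjusted p = 1.09e-10), whereas the controls differed by -0.07 (adjusted p = 0.894). In bulk RNA, fewer responding cells and less RNA per cell cannot be told apart.

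**Figure D1:**
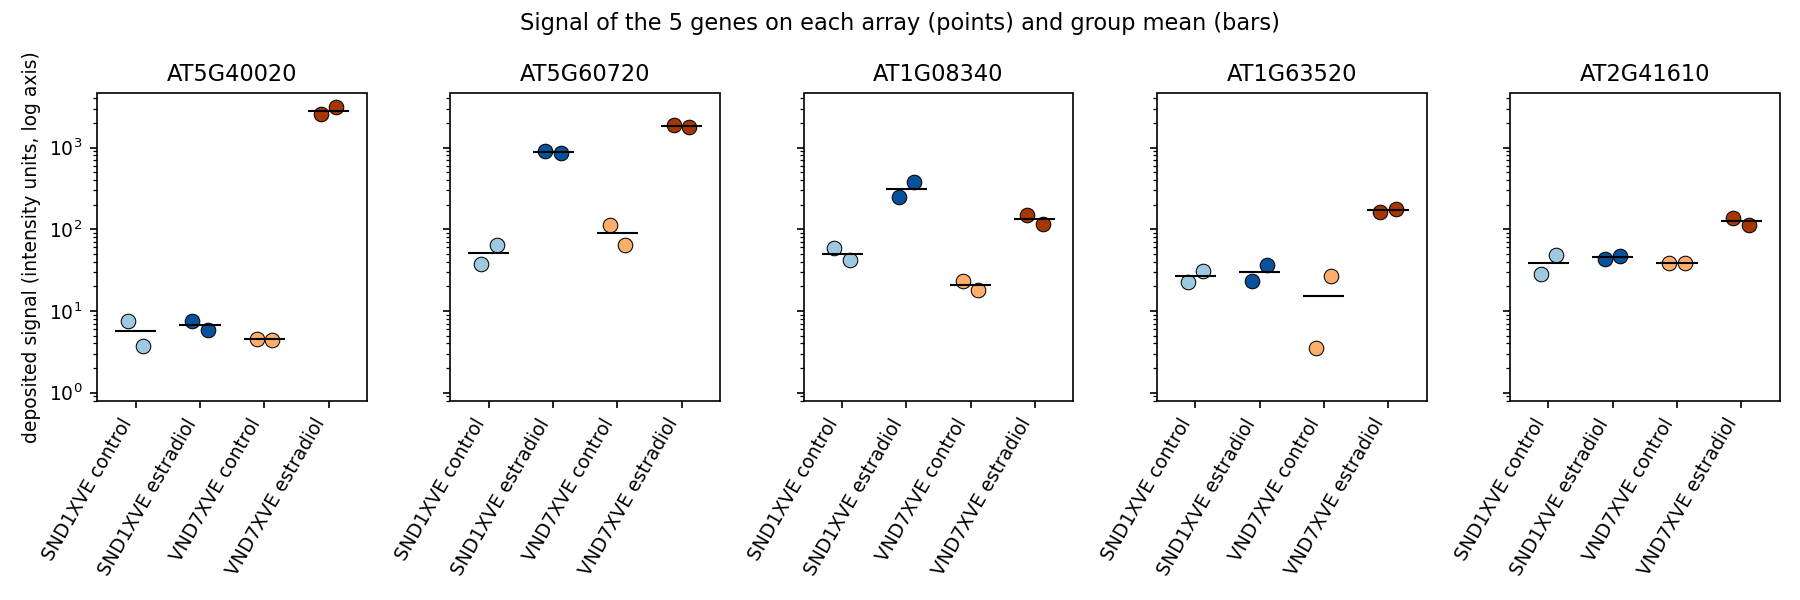
Deposited signal on a log axis for each of the 5 genes, with a point for each of the 8 arrays and a bar for the mean of each group of 2. AT5G60720 and AT1G08340 were high with estradiol in both lines, whereas AT5G40020, AT1G63520 and AT2G41610 exceeded their other groups in VND7XVE with estradiol, AT5G40020 from under 10 to a mean of 2833.

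AT1G08340, the Rop GTPase activating family gene, rose in both lines, and its level was lower in VND7XVE with and without estradiol. SND1XVE signals were 59.3 and 41.6 without estradiol against 247.3 and 375.8 with it. VND7XVE signals were 23.5 and 18.1 without it against 148.1 and 116.4. None of the 4 groups overlapped, and their order was SND1XVE estradiol, VND7XVE estradiol, SND1XVE control, VND7XVE control. The change was 2.29 ± 0.28 in SND1XVE (adjusted p = 1.66e-05) and 2.01 ± 0.28 in VND7XVE (adjusted p = 6.51e-05), and the ratio of mean signals was 6.18 and 6.36. The effects differed by -0.28, with a 95% interval from -1.11 to 0.55 (adjusted p = 0.848). VND7XVE lay below SND1XVE, with a difference of -0.84 ± 0.28 in controls (adjusted p = 0.0317) and -1.12 ± 0.28 with estradiol (adjusted p = 0.0056). The difference with estradiol was not called without SND1XVE estradiol replicate 2 (-0.84, adjusted p = 0.115) or VND7XVE estradiol replicate 2 (-0.97, adjusted p = 0.0696). That of the controls was not called without SND1XVE control replicate 1 (-0.65, adjusted p = 0.16), VND7XVE control replicate 1 (-0.95, adjusted p = 0.0562) or VND7XVE control replicate 2 (-0.74, adjusted p = 0.132).

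AT5G60720 also rose in both lines, and reached a higher level in VND7XVE. In SND1XVE its signals were 37.7 and 64.8 without estradiol against 906.7 and 868.8 with it, a change of 3.78 ± 0.21 (adjusted p = 2.75e-09). In VND7XVE they were 114.2 and 64.2 without it against 1909.3 and 1778.1, a change of 4.18 ± 0.21 (adjusted p = 3.93e-10). The change ranked 27th of the tested probe sets in SND1XVE and 72nd in VND7XVE, counted from the largest rise. The effects differed by 0.41, with a 95% interval from -0.24 to 1.05 (adjusted p = 0.642). The estradiol arrays of the lines did not overlap and differed by 1.04 ± 0.21 (adjusted p = 0.00153). The control arrays overlapped, at 37.7 to 64.8 against 64.2 to 114.2. Their difference of 0.63 ± 0.21 passed the threshold (adjusted p = 0.037), but in only 9 of 19 alternative settings, falling to 0.34 without SND1XVE control replicate 1 (adjusted p = 0.307) and to 0.28 without VND7XVE control replicate 1 (adjusted p = 0.42). Without SND1XVE estradiol replicate 1 or 2, or VND7XVE estradiol replicate 1 or 2, arrays that enter only the error estimate, its adjusted p was 0.0517, 0.0516, 0.0642 and 0.0637.

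AT1G63520 had low signals on all but the VND7XVE estradiol arrays. They were 22.7 and 30.5 in SND1XVE controls, 23.5 and 36.9 in SND1XVE with estradiol, 3.5 and 27.0 in VND7XVE controls, and 164.7 and 176.7 in VND7XVE with estradiol. The VND7XVE controls were the least alike pair of this gene, and both lay far below the estradiol arrays. The change was 2.69 ± 0.42 in VND7XVE (adjusted p = 0.000228) and 0.11 in SND1XVE, with a 95% interval from -0.78 to 1.00 (adjusted p = 0.908). The effects differed by 2.58 ± 0.59 (adjusted p = 0.0227), a call kept in 8 of 16 settings. It was lost without any of SND1XVE control replicate 2 (adjusted p = 0.0622), SND1XVE estradiol replicate 1 (0.0974), VND7XVE control replicate 1 (0.072), VND7XVE estradiol replicate 1 (0.14) or VND7XVE estradiol replicate 2 (0.142). The lines differed with estradiol by 2.03 ± 0.42 (adjusted p = 0.00157), and their controls overlapped, with a difference of -0.55 (adjusted p = 0.361).

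AT2G41610 showed the smallest rise of the 5 in VND7XVE. Its signals were 28.2 and 48.5 in SND1XVE controls, 43.0 and 47.6 in SND1XVE with estradiol, 38.6 and 38.3 in VND7XVE controls, and 139.2 and 112.0 in VND7XVE with estradiol. The first 3 groups overlapped or lay close together, and the last stood above them. The change in VND7XVE was 1.37 ± 0.32 (adjusted p = 0.00774), a call lost without VND7XVE estradiol replicate 1 (1.23, adjusted p = 0.119). In SND1XVE the change was 0.20, with a 95% interval from -0.49 to 0.89 (adjusted p = 0.757). The effects differed by 1.17, with a 95% interval from 0.20 to 2.15, which did not pass the threshold after adjustment (adjusted p = 0.245). The lines differed with estradiol by 1.20 ± 0.32 (adjusted p = 0.0101), a call lost without SND1XVE estradiol replicate 1 (1.15, adjusted p = 0.0596) and without VND7XVE estradiol replicate 1 (1.06, adjusted p = 0.111). The controls differed by 0.03 (adjusted p = 0.963).

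**Figure D2:**
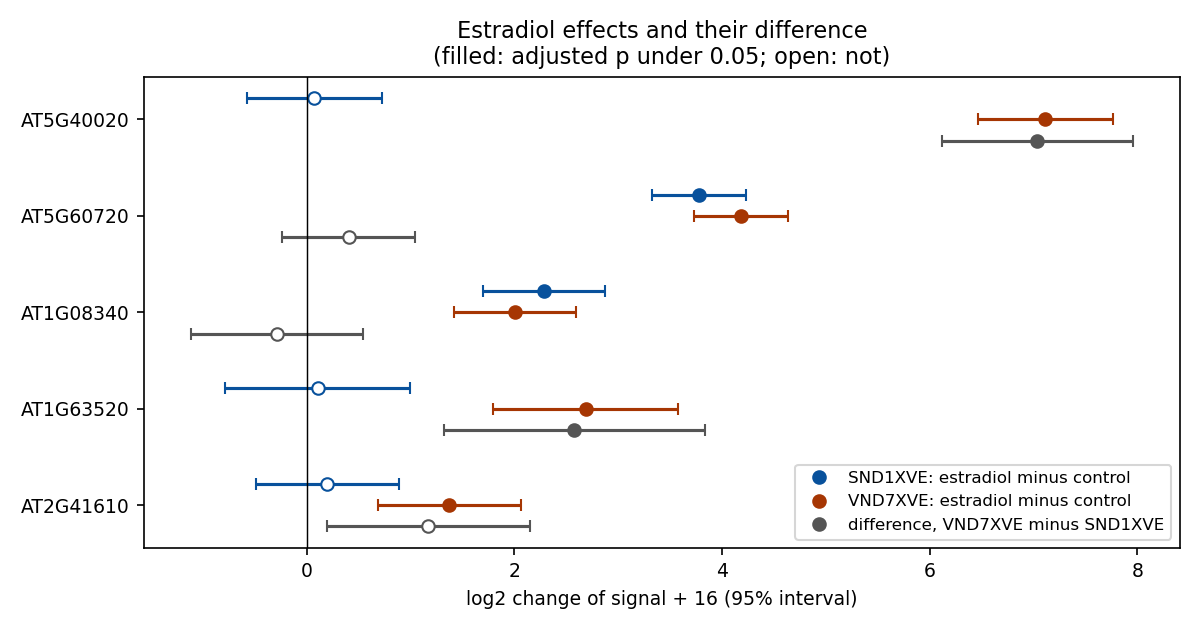
Log2 change of signal + 16 for the estradiol effect in SND1XVE and in VND7XVE and for the difference between them, with 95% intervals, for the 5 genes. Filled points passed the adjusted threshold: AT5G60720 and AT1G08340 had similar values in both lines, 3.78 and 4.18 and then 2.29 and 2.01, and the difference was called for AT5G40020 and AT1G63520.

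Of the 5 genes, 2 rose in SND1XVE, where 9.37% of tested probe sets rose and 7.06% fell (16.4% in all). In VND7XVE 5 rose, where 8.15% of tested probe sets rose and 6.37% fell (14.5% in all). The members' median change was 0.20 in SND1XVE and 2.69 in VND7XVE, against 0.02 and -0.03 over all tested probe sets. The members were named with these changes known. Of the 5, 3 passed the filter only through the VND7XVE estradiol arrays, and AT1G08340 passed only with estradiol arrays counted. These counts therefore describe the genes and support nothing further. With no filter on low signal the same numbers were called, 2 and 5, among 4.87% and 4.55% of 22746 probe sets. Without VND7XVE estradiol replicate 1 the number in VND7XVE was 4. Centring each array on its median moved the median of all probe sets from 0.02 to -0.08 in SND1XVE and from -0.03 to -0.15 in VND7XVE. The numbers of probe sets called higher and lower then went from 1384 and 1043 to 1089 and 1665 in SND1XVE, and from 1204 and 940 to 1021 and 1938 in VND7XVE. The members' calls in these comparisons did not change under it. The difference between the effects was called higher in VND7XVE for 2 of the 5, where 1.97% of tested probe sets were called that way, and lower for 0, where 1.09% were (3.06% in all). In controls 1 member was called higher in VND7XVE and 1 lower, where 13.7% and 13.8% of tested probe sets were called (27.5% in all). With estradiol 4 were called higher in VND7XVE and 1 lower, against 14.1% and 16.5% (30.6% in all). These last comparisons reuse the arrays of the estradiol effects and are not separate evidence.

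**Figure D3:**
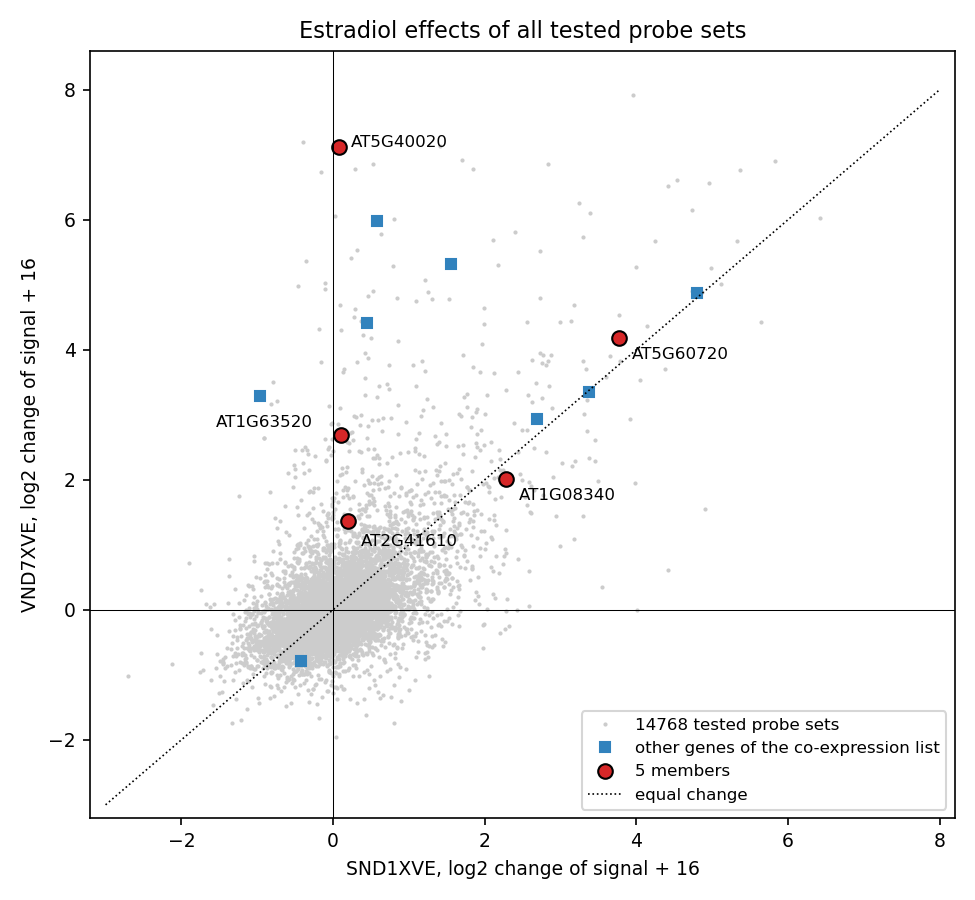
Estradiol effect in SND1XVE (horizontal) against VND7XVE (vertical), as log2 change of signal + 16, for 14768 tested probe sets in grey, the 5 genes as circles and the other tested genes of the co-expression list as squares. AT5G60720 and AT1G08340 lie near the dotted line of equal change, and AT5G40020, AT1G63520 and AT2G41610 lie at 0.08, 0.11 and 0.20 in SND1XVE.

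The wider list of genes known for co-expression with the secondary wall cellulose synthases held 45 further genes and was drawn up with earlier results of these arrays in view. Of these genes 19 were named and 8 were tested. In SND1XVE 4 of the 8 rose, 1 fell and 3 had no call, and in VND7XVE 7 rose and 1 fell. Over all tested probe sets 9.37% rose and 7.06% fell in SND1XVE, and 8.15% rose and 6.37% fell in VND7XVE. IRX15, TBL34, AT1G54790 and AT1G58070, 4 of the 8, exceeded the filter level on estradiol arrays only. AT4G08160 exceeded it on 2 estradiol arrays and on 1 control array, where the filter needs 2 arrays. The testing of all these genes, AT4G08160 included, thus depended on their rise, and the counts describe the genes alone. The median change was 1.07 and 3.88 over the 8, and 0.03 and 0.51 over all 19 named genes with no filter. The difference between the effects was called for 4, each time with the higher value in VND7XVE. Over all tested probe sets it was called higher in VND7XVE for 1.97% and lower for 1.09%. The 11 genes below the filter had mean signals of at most 47.3 in every group.

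IRX15 and GUT2, which act in making xylan, rose in both lines by 4.80 and 2.68 in SND1XVE and by 4.87 and 2.94 in VND7XVE. Their effects differed between the lines by 0.06 and 0.26 (adjusted p = 0.963 and 0.669). AT1G54790 behaved like AT5G60720. Its signals went from 3.7 and 11.7 to 236.6 and 216.5 with estradiol in SND1XVE, and from 44.1 and 14.9 to 423.6 and 419.6 in VND7XVE. Its change was 3.37 ± 0.31 in SND1XVE and 3.34 ± 0.31 in VND7XVE (adjusted p = 7.75e-07 and 6.17e-07).

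AT1G58070 had the pattern of AT5G40020. Signals were 2.4 and 8.4 without and 4.6 and 24.7 with estradiol in SND1XVE, and 10.8 and 18.1 without and 545.5 and 717.4 with it in VND7XVE. The change was 0.45 in SND1XVE (adjusted p = 0.531) and 4.41 ± 0.41 in VND7XVE (adjusted p = 6.13e-07), and the difference of 3.96 ± 0.57 was called (adjusted p = 0.000538), though not with a pseudocount of 1 (adjusted p = 0.104). AT4G08160, of a xylanase family, stood at 0.57 in SND1XVE (adjusted p = 0.47) and rose by 5.98 ± 0.46 in VND7XVE (adjusted p = 6.6e-08), a difference of 5.41 ± 0.65 (adjusted p = 8.19e-05). TBL34, of a family that acetylates xylan, rose in both lines, by 1.56 ± 0.33 in SND1XVE (adjusted p = 0.00285) and by 5.32 ± 0.33 in VND7XVE (adjusted p = 3.91e-09). The difference of its effects was 3.75 ± 0.46 (adjusted p = 0.000104).

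AT3G62160, of an acyltransferase family, moved in opposite directions. Its signals went from 52.1 and 64 to 16 and 29.1 in SND1XVE, and from 50.3 and 36.1 to 502.4 and 623.5 in VND7XVE. It fell by 0.96 on the log2 scale in SND1XVE (adjusted p = 0.0242) and rose by 3.29 ± 0.28 in VND7XVE (adjusted p = 2.07e-07), and the difference was 4.25 ± 0.39 (adjusted p = 4.81e-06). The fall in SND1XVE was not called without SND1XVE control replicate 2 (adjusted p = 0.117), SND1XVE estradiol replicate 1 (0.181), VND7XVE estradiol replicate 1 (0.0641) or VND7XVE estradiol replicate 2 (0.069), nor without the filter (0.089), with a pseudocount of 64 (0.0581) or with the SND1XVE arrays alone (0.154). IRX15-L, a relative of IRX15, fell by 0.78 on the log2 scale in VND7XVE (adjusted p = 0.00177) and stood at -0.42 in SND1XVE (adjusted p = 0.0745), where it was called after quantile normalization (0.0239) or median centring (0.0246). IRX15-L and GUT2 were chosen after their values were seen.

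Among ROPs and their regulators, a second Rop GTPase activating gene rose with AT1G08340. Of 35 listed genes 5 were named and 4 tested, and 1 rose in each line while 3 had no call. Over all tested probe sets 9.37% rose in SND1XVE and 8.15% in VND7XVE. With only 4 genes tested, the count is no result about the list. AT3G11490, also of the Rop GTPase activating family, had signals of 66.0 and 75.3 without and 196.0 and 166.6 with estradiol in SND1XVE, and of 97.1 and 81.1 without and 228.4 and 190.9 with it in VND7XVE. Control and estradiol arrays did not overlap in either line. It rose by 1.19 ± 0.21 in SND1XVE and 1.10 ± 0.21 in VND7XVE (adjusted p = 0.00079 and 0.00154), less than AT1G08340 in both, and the difference between its effects was -0.08 (adjusted p = 0.946). AT5G22400 of the same family stood at 0.25 and -0.06 (adjusted p = 0.542 and 0.912), AT5G12150 of the same list at -0.11 and -0.10 (adjusted p = 0.83 and 0.848), and the microtubule-destabilising kinesin gene AT3G16630 at 0.21 and 0.34 (adjusted p = 0.28 and 0.0759). The median of the 4 was 0.23 in SND1XVE and 0.14 in VND7XVE. AT4G03100, again of the Rop GTPase activating family, stayed at 1.6 to 17.0 on all arrays and was not tested. No ROP gene and no ROP activator was named among the probe sets used here.

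The thaumatin family was followed through 23 other listed genes, of which 19 were named and 9 were tested by 10 probe sets. In each line 0 of the 10 rose and 1 fell, near the shares of all tested probe sets that rose (9.37% and 8.15%) and fell (7.06% and 6.37%), so the counts are no result about the family. Their medians were -0.20 and -0.01. AT4G18250 went from 463.9 and 368.0 to 243.6 and 195.9 with estradiol in SND1XVE, and from 168.7 and 154.1 to 72.6 and 86.1 in VND7XVE. It fell by 0.87 on the log2 scale in SND1XVE (adjusted p = 0.00349, and 0.051 without SND1XVE control replicate 1) and fell by 0.90 in VND7XVE (adjusted p = 0.00303). The highest other value in VND7XVE was that of AT1G20030, at 0.95 ± 0.43 (adjusted p = 0.172), with signals of 40.4 and 36.6 without and 96.5 and 81.9 with estradiol. It was called when only the VND7XVE arrays were fitted (adjusted p = 0.0414). AT4G36000 stood at -1.45 in SND1XVE, just outside the threshold (adjusted p = 0.0503), and passed it in 4 alternative settings. AT1G19320, AT4G38660 and AT1G77700 lay below the filter, with mean signals of at most 54.05 in any group. AT1G70250, by 1 of its 2 probe sets, passed in SND1XVE after quantile normalization or median centring (-0.42 and -0.43, adjusted p = 0.0341 and 0.0239), and AT4G36010 in VND7XVE after centring (-0.29, adjusted p = 0.0388). OSM34, an osmotin-like gene, had signals of 85.8 and 91.3 without and 149.2 and 155.7 with estradiol in SND1XVE, a change of 0.69 (adjusted p = 0.107) that was called without the limma trend (adjusted p = 0.0351). These last 3 genes were chosen after their values were seen.

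**Figure D4:**
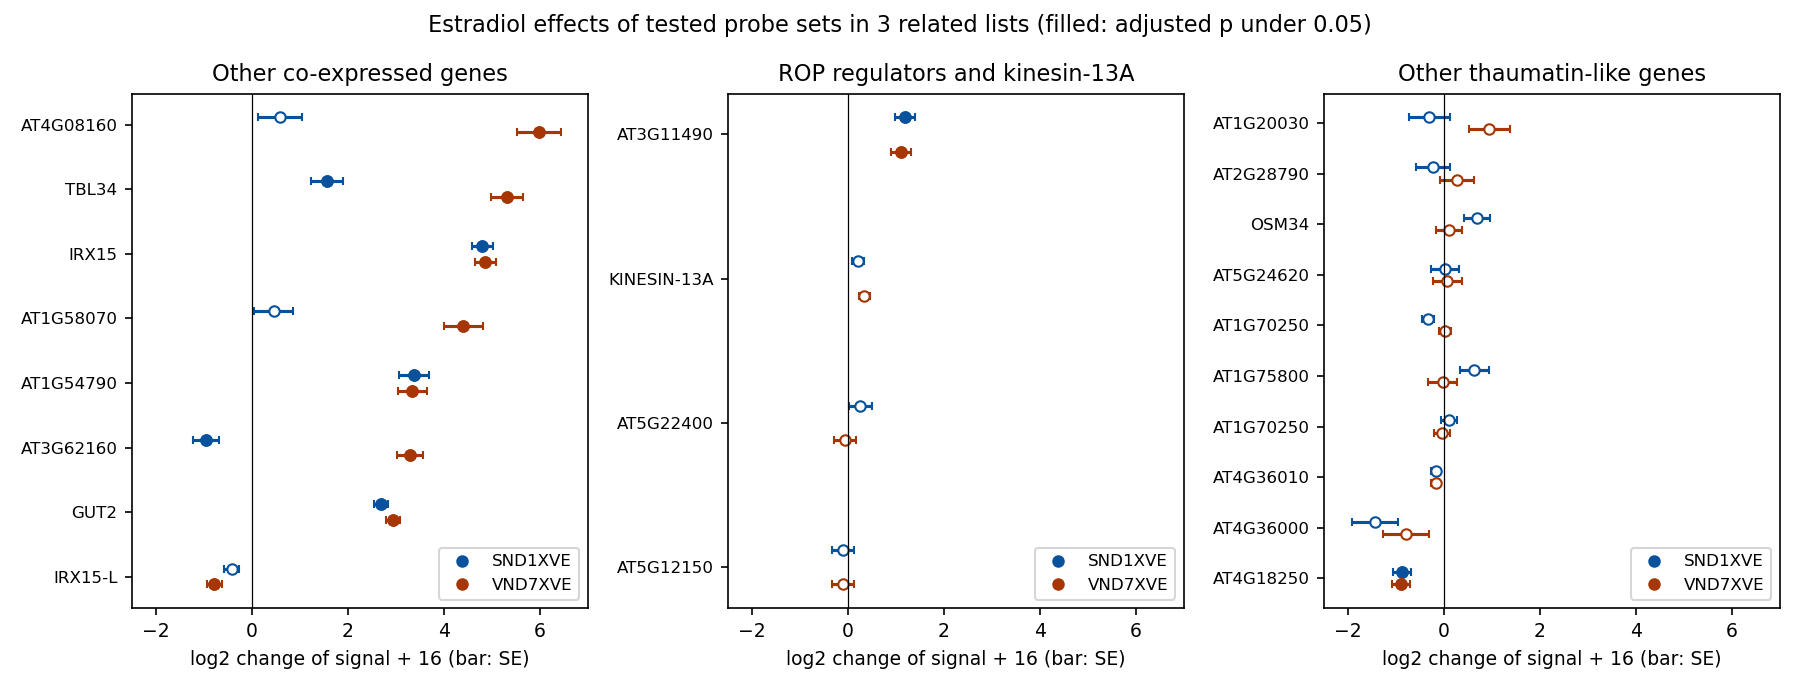
Estradiol effects as log2 change of signal + 16, with SE bars, in SND1XVE and VND7XVE for the tested probe sets of 3 lists; filled points passed the adjusted threshold. In the co-expression list 7 of the 8 tested genes rose in VND7XVE, where 8.15% of all tested probe sets rose. The median there was 0.51 over all 19 named genes, 11 of them not tested. Among ROP regulators AT3G11490 rose in both lines, and of the other thaumatin-like genes AT4G18250 fell in both.

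The genes with the most similar profiles were found by Pearson's r of log2(signal + 16) over the 8 arrays, among 2979 named and tested probe sets that spanned at least 1 on that scale. With 4 groups of 2 arrays, such values reflect mainly the group means, and they are given as descriptions. Candidates also had to pass the filter. Among those named below, AT5G19870, AT1G10810 and AT5G26330 were low elsewhere and passed through their VND7XVE estradiol arrays, and AT5G39970 and AT1G54790 through estradiol arrays. AT4G08160 exceeded the filter level on 1 control array and 2 estradiol arrays, so it too passed only with estradiol arrays counted. Closest to AT5G40020 were AT5G19870 (r = 0.9996), AT1G10810 (0.9977) and the cytochrome P450 gene CYP71B21 (0.997). Their mean signals in VND7XVE with estradiol were 1524, 787.8 and 1900, and they rose by 6.06 ± 0.32, 5.41 ± 0.37 and 4.62 ± 0.17 in that line, with 0.03, 0.24 and 0.29 and no call in SND1XVE.

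Closest to AT5G60720 were AT1G54790 (r = 0.9961), AT2G27130 (0.9958) and AT1G35780 (0.9916), which rose in SND1XVE by 3.37, 2.85 and 4.15 and in VND7XVE by 3.34, 3.44 and 4.36. Closest to AT1G08340 were AT5G39970 (0.996), AT3G48440 (0.9899) and AT5G35730 (0.9874). All 3 had lower mean signals in VND7XVE than in SND1XVE under either treatment. AT3G48440 rose by 1.60 ± 0.14 and 1.28 ± 0.14, and AT5G35730 by 1.23 ± 0.13 and 0.84 ± 0.13. AT5G39970 changed by 1.68 in SND1XVE (adjusted p = 0.0224), not called without SND1XVE control replicate 2 or either SND1XVE estradiol array (0.0973, 0.0789 and 0.195) or with a pseudocount of 1 (0.121). In VND7XVE it changed by 1.50 (adjusted p = 0.0462), not called without any array of that line in turn (0.0979 to 0.31) or either SND1XVE estradiol array (0.079 and 0.0882). That call was also lost with a replicate block (0.0561), a pseudocount of 64 (0.0696), median centring (0.0533) and the VND7XVE arrays alone (0.0953).

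Closest to AT1G63520 were AT1G33265 (r = 0.9725), AT1G76020 (0.9668) and AT5G52820 (0.9613), with rises of 1.51, 2.71 and 1.04 in VND7XVE and no call in SND1XVE. Closest to AT2G41610 were AT5G26330 (0.9915), the xylanase family gene AT4G08160 (0.9855) and AT4G03500 (0.9846), with rises of 2.84, 5.98 and 1.26 in VND7XVE. AT4G08160 had no call in SND1XVE (0.57, adjusted p = 0.47), but was called there without SND1XVE control replicate 2 (1.57, adjusted p = 0.00893).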

How the data were processed

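RNA of 8 samples was labelled with biotin and hybridised to Affymetrix arrays, according to the labels' protocols. GCOS is the tool named in the submitters' processing notes, with no version or setting. What the authors deposited is 1 linear signal intensity for each probe set and array. Each array's mean, trimmed by 2%, came to 500.0 or 500.1, and no further normalization was applied. Groups and replicate numbers come from the sample titles. The labels do not say whether replicates are separate cultures. The p-values therefore measure only the spread among these samples, possibly technical, and the number of arrays limits the precision.

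Of 22746 probe sets outside 64 array controls, 13513 named 1 gene in the platform annotation, of which 13436 matched NCBI reference genes. Coordinates are left out because the array's build is not named. Values were transformed to log2(signal + 16), filtered at the 40th percentile on at least 2 arrays, and fitted with 4 group means in limma 3.58.1 under R 4.3.3 (lmFit, contrasts.fit, eBayes with trend, 4 residual degrees of freedom). Tests were two-sided, with Benjamini-Hochberg adjustment over 14768 probe sets in each of 5 comparisons. The fit was tested on simulated data with independent noise and changes of known size, which checks the code and bears on no result given here. Members and lists were chosen with earlier results of these data known. Named genes are the 5 members, the 3 most similar profiles for each, and up to 6 of each list with the largest changes. The reference table holds no family descriptions, so relatives came from lists of loci, and relatives of AT5G60720 and AT1G63520 were not looked up. Deviations of same-numbered replicates from their group means correlated at -0.0311 to 0.0239. These values show no marked shared deviation by number, but cannot tell whether same-numbered samples were prepared together. Alternatives were the pseudocount, scaling, filter, limma settings, a replicate block and leaving out each array. Python 3.11.15 with pandas 2.3.3 and matplotlib 3.10.9 made the tables and plots.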

Additional observations from a re-analysis of the deposited data

Results flagged for a closer look

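The estradiol effect differed between the lines, by the test of the difference itself, for 2 of the 5 genes. For AT5G40020 the VND7XVE effect was the higher by 7.04 (log2), and the difference was called in all 18 alternative settings, at 5.37 to 8.73. For AT1G63520 it was the higher by 2.58, and the difference was called in 8 of 16 settings, at 1.53 to 3.78. Both genes had signals under the filter level on every array but the VND7XVE estradiol pair. With 2 arrays in a group, no test for a single array far from its group was possible.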

How the results depend on the processing

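The rises of AT5G60720 and AT1G08340 in both lines and of AT5G40020 in VND7XVE were called in all 19 alternative settings, and that of AT1G63520 in VND7XVE in all 17. Of 455 values recomputed for the 5 genes, 416 kept their direction and call, 29 lost a call and 10 changed sign. AT1G63520 could not be tested with the filter at the 60th percentile or on the mean over all arrays, nor AT2G41610 with the former. The cause of the losses was not tested. With a pseudocount of 1 the difference of effects was 0.0192 for AT1G08340 and 3.78 for AT1G63520 (adjusted p = 0.996 and 0.105). The call of AT1G63520 was also lost with no filter and with no limma trend (2.58 in both, adjusted p = 0.0812 and 0.0713). Between controls, AT5G60720 lost its call with a pseudocount of 64 (0.40), without the filter, without the trend and with the control arrays alone (0.63 in each). AT1G08340 lost it with a pseudocount of 64 (-0.43), and without the filter and with the control arrays alone (-0.84 in both). Centring on the median put AT5G40020 at -0.0218 in SND1XVE. A pseudocount of 64 gave called rises in VND7XVE of 1.21 for AT1G08340, 1.58 for AT1G63520 and 0.88 for AT2G41610.

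With each array left out in turn, uncalled SND1XVE effects ran from -0.0539 to 0.21 for AT5G40020, -0.10 to 0.32 for AT1G63520 and -0.0744 to 0.47 for AT2G41610. The VND7XVE effect of AT2G41610 ran from 1.23 to 1.51. The difference of effects ran from 0.0575 to 0.76 for AT5G60720, from -0.57 to 0.0066 for AT1G08340 and from 2.01 to 3.15 for AT1G63520. Between controls the values ran from -0.20 to 0.0574 for AT5G40020, 0.28 to 0.98 for AT5G60720, -1.04 to -0.65 for AT1G08340, -1.12 to 0.0196 for AT1G63520 and -0.24 to 0.30 for AT2G41610. Between estradiol arrays they ran from -1.41 to -0.84 for AT1G08340 and from 1.06 to 1.34 for AT2G41610. A replicate block changed no call of the 5 genes (AT1G63520 difference 2.58, adjusted p = 0.0174) and moved the count of calls in SND1XVE from 2427 to 2457. Without the limma trend the counts of called probe sets fell to 1584 in SND1XVE (from 2427), 1326 in VND7XVE (from 2144) and 226 for the difference (from 452, and 291 without the filter). They were 1611 in SND1XVE without its estradiol replicate 1, and 1231 and 1308 in VND7XVE without control replicate 1 or estradiol replicate 1. For the difference they were 232 and 263 without VND7XVE estradiol replicate 1 or 2. Between controls they were 2601 and 2571 without VND7XVE control replicate 1 or 2 (from 4067), and between estradiol arrays 2998 without VND7XVE estradiol replicate 1 (from 4517).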

Other observations

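The genes next to the 5 members in the reference annotation were looked up, a choice made after the files were seen. Of 10 such protein-coding neighbours 6 were named on the array and 5 were tested. AT5G60730, beside AT5G60720, rose in SND1XVE by 0.91 ± 0.16 on the log2 scale (limma, adjusted p = 0.000572), with signals of 303.2 and 332.8 in controls and 668.9 and 559.7 with estradiol. In VND7XVE it stood at 0.27 (adjusted p = 0.319), with 171.2 and 216.8 in controls and 236.2 and 233.7 with estradiol. The difference between its effects, VND7XVE minus SND1XVE, was -0.65 and was not called (adjusted p = 0.168), so a response in SND1XVE alone is not shown. AT5G60710, on the other side, fell by 0.40 on the log2 scale in VND7XVE (adjusted p = 0.0239), a call lost without VND7XVE control replicate 1 (adjusted p = 0.258) or estradiol replicate 1 (0.282), after quantile normalization (0.0646), with no filter (0.0729) and with no limma trend (0.156), and stood at -0.01 in SND1XVE. For AT5G60710 too the difference between the effects was not called (-0.39, adjusted p = 0.271). AT5G40030, beside AT5G40020, had signals of 1.5 to 6.3 on all 8 arrays and was not tested. AT1G08350, AT2G41600 and AT2G41620 had no call in either line, except that AT1G08350 was called lower in SND1XVE after quantile normalization (-0.55, adjusted p = 0.0303), after median centring (-0.55, adjusted p = 0.0282) and without SND1XVE estradiol replicate 2 (-0.64, adjusted p = 0.0384).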
